A study of Mus musculus with 16 samples.

Results

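The 10 genes described here encode the transcription factors that specify heart muscle and keep its gene programme running in the adult: Gata4, Gata6, Mef2a, Mef2c, Mef2d, Srf, Nkx2-5, Hand2, Tbx5 and Tbx20. They were taken from the deposited table by symbol, and all 10 were found among its 35682 genes and passed the filter on low counts, which left 10945 genes. The samples were adult ventricular myocytes from 16 mice, 8 wild-type (WT) and 8 of the genotype B3AR-Tg, a name that points to a transgene for the beta-3 adrenergic receptor. Every mouse of both genotypes had undergone transverse aortic constriction (TAC), which narrows the aorta and loads the left ventricle, and hearts were taken 9 weeks later, so the only contrast is genotype under pressure overload. The promoter that drives the transgene, the species of the receptor and the animals' sex and age were not given in the sources used here. Myocytes were freed by Langendorff perfusion with digestion of the heart, plated for 1 hour and then lysed, and RNA was sequenced after ribosomal RNA depletion.

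The factors act by binding short DNA motifs, often side by side on the same promoter. GATA4 and GATA6 are zinc finger proteins; the MEF2 proteins and SRF are MADS-box proteins; NKX2-5 is a homeodomain protein; TBX5 and TBX20 are T-box proteins; HAND2 is a basic helix-loop-helix protein. In the loaded heart, GATA4, MEF2 and SRF are known as end points of kinase signalling that drives the fetal gene programme, which includes the natriuretic peptides and skeletal actin, and much of that control works through phosphorylation, cofactors and deacetylases and need not change the factors' own mRNA.

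Promoters of 3 genes show where such motifs lie, and were chosen because Nppa and Acta1 were among the target genes that fell most while Actc1, a second actin with the same kind of motif, did not pass the test. The promoter of Srf, a member with that motif in its own promoter, and that of Mef2d, the member that rose, are given beside them. Each run holds the 250 bases before the RefSeq start site (GRCm38.p6), 5′ to 3′ on the gene's own strand, with motif matches in capitals.
Nppa (chr4:148000472-148000721, plus strand): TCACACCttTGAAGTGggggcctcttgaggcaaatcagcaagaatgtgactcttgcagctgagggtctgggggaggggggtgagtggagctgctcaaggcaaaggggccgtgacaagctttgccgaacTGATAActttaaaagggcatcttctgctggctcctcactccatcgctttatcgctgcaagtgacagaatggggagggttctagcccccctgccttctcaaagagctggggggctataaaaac
Acta1 (chr8:123894776-123895025, minus strand): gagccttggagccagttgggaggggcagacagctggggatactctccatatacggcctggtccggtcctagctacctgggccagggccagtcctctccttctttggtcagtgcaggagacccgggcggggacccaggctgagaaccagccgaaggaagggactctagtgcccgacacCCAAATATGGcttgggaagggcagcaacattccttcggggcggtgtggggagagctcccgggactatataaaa
Actc1 (chr2:114052876-114053125, minus strand): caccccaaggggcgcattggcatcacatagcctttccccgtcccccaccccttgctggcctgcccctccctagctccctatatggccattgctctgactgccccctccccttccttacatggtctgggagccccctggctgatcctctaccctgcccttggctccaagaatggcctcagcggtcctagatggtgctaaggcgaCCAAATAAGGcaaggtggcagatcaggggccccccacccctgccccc
Srf (chr17:46556163-46556412, minus strand): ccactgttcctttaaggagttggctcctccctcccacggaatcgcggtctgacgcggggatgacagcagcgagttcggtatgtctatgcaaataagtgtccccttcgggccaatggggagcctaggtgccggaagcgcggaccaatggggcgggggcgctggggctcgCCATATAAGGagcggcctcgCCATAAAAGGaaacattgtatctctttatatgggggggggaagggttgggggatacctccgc
Mef2d (chr3:88142122-88142371, plus strand): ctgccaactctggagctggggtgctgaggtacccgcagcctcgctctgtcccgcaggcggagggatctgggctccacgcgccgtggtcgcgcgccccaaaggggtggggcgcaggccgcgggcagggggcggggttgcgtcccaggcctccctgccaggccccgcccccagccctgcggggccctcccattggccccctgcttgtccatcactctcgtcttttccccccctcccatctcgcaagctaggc

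Both strands were searched for 5 motifs. In Nppa, the capitals mark, from left to right, a T-box site (GGTGTGA, read on the other strand), an NKX2-5 site (TNAAGTG) and a GATA site (NGATAN with A or T as its first letter and A or G as its last). The GATA site spans bases −122 to −117 before the start site. In Acta1 and Actc1 the capitals mark 1 CArG box each, the motif bound by SRF, at −73 to −64 and at −47 to −38. Srf held 2 CArG boxes, at −82 to −73 and at −62 to −53. Mef2d held no match to these motifs or to the MEF2 site. Over 32851 promoter windows of the same length, 1.47% held a CArG box, 2.92% a MEF2 site, 26.5% a GATA site, 10.1% an NKX2-5 site and 3.33% a T-box site. A match is a match of letters and says nothing about binding. Of the 10 factors, 7 had a promoter window that was searched, and Gata4, Gata6 and Tbx5 had none. Windows on chromosome 18, where Gata6 lies, were left out when those of the named genes were taken.

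Library totals lay between 5985335 and 14365864 counts. CPM below are normalised read counts (TMM factors), and 3 counts, taken as the floor of detection, corresponded to 0.200 to 0.486 CPM. Counts of the 10 factors ran from 29 (Tbx5 in 1 WT library) to 2655 (Tbx20 in 1 B3AR-Tg library), so every factor lay above the floor in every mouse. The myocyte label held against its markers: the summed level of 11 myocyte genes was 74627 to 100046 CPM in WT and 82599 to 117616 CPM in B3AR-Tg. Markers of other cells were present at low levels. All 7 tested fibroblast markers had lower estimates and 4 passed the test, with sums of 40.7 to 163 CPM in WT and 11.1 to 58.9 CPM in B3AR-Tg. Of 8 endothelial markers, 2 passed, both lower (123 to 174 CPM against 56.7 to 218 CPM). Summed mural, leukocyte, atrial and epicardial markers reached at most 162, 15.3, 86.1 and 3.05 CPM in WT and 143, 6.37, 52.3 and 5.22 CPM in B3AR-Tg, and no marker of any list was at 0 in all mice. Several of the factors, such as Gata4, Gata6, Mef2c, Tbx20 and Hand2, are also known from fibroblasts or endothelial cells, and their share of each signal was not tested. In bulk RNA, fewer cells of a type and less RNA per cell cannot be told apart.

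Of the 10 factors, 1 rose in B3AR-Tg and none fell. Mef2d, a MEF2 protein that class II deacetylases hold in check, was higher by a log2 fold change of 0.41 (edgeR's quasi-likelihood test, adjusted p = 0.0378 with Benjamini-Hochberg adjustment over all tested genes). Over all tested genes, 4.91% passed that threshold, 2.03% higher and 2.88% lower (222 and 315 genes; 347 and 165 with library size as the only scaling). The groups of all 10 factors overlapped, as did those of nearly all tested genes. Groups did not overlap for 0.201% of tested genes with higher values in B3AR-Tg and 0.247% with lower values. Tbx5, Mef2a and Gata6 had higher estimates that did not pass, and the other 6 had estimates between −0.06 and 0.04. The median log2 fold change was 0.03 over the 10 factors and 0.01 over all tested genes. Without adjustment, 4 of the 10 factors had a p under 0.05, all with higher values in B3AR-Tg, where 8.71% of all tested genes did so in that direction.

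**Figure D1:**
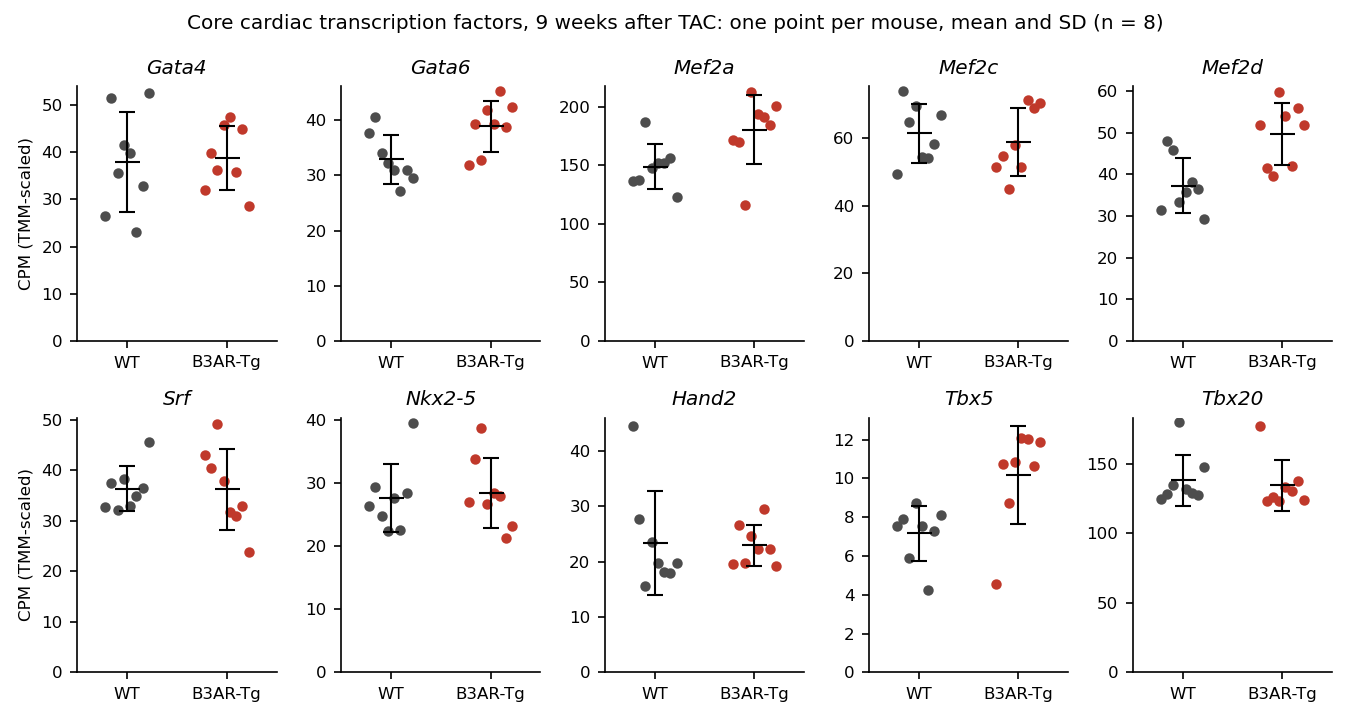
TMM-scaled CPM (vertical axis, from 0) of the 10 factors in each of 8 WT (grey) and 8 B3AR-Tg (red) mice; bars give the mean and SD. The 8 B3AR-Tg points of Mef2d all sit above the WT median of 36.1 CPM, while for Nkx2-5 the groups cover almost the same range, 22.4 to 39.4 CPM and 21.3 to 38.7 CPM.

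Among the MEF2 genes, Mef2d lay at 29.2, 36.1 and 48.1 CPM in WT (lowest, median and highest mouse) and at 39.7, 51.8 and 59.7 CPM in B3AR-Tg. All 8 B3AR-Tg mice were above the WT median and 5 were above the highest WT mouse, while 6 WT mice were below the lowest B3AR-Tg mouse, so the groups overlapped at their edges. The mean was 37.3 ± 6.67 CPM in WT mice against 49.6 ± 7.44 CPM in B3AR-Tg mice (SD, n = 8 each), a 1.33-fold difference with a 95% interval of 1.13 to 1.56. The call was lost when any of 11 of the 16 mice was left out (WT replicates 1, 4, 5, 6, 7 and 8, and B3AR-Tg replicates 1, 4, 5, 7 and 8), with log2 fold changes of 0.36 to 0.41 and edgeR adjusted p-values of 0.0515 to 0.0841. Markers of load and of other cells were lower in the same B3AR-Tg mice (values given with the scores at the end); with the other-cell markers as a covariate the estimate was 0.63 (standard error 0.16, adjusted p = 0.201), and the part of load was not tested.

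Mef2a, the MEF2 gene with the highest level per kilobase of transcript here, lay at 123, 149.5 and 187 CPM in WT and at 116, 188 and 213 CPM in B3AR-Tg. In B3AR-Tg 1 mouse stood apart, replicate 3 at 116 CPM, below every WT mouse, while the other 7 lay at 169.6 CPM or above. The log2 fold change of 0.28 (standard error 0.11) did not pass in edgeR's test (adjusted p = 0.144). Without B3AR-Tg replicate 3 it was 0.35 and passed (edgeR adjusted p = 0.0223), and limma voom with sample weights also called it (0.32, adjusted p = 0.0428).

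Mef2c, the MEF2 gene that acts earliest in the heart tube, stood at 61.4 ± 8.65 CPM in WT mice against 58.9 ± 10.1 CPM in B3AR-Tg mice. Single mice ranged from 49.3 to 74.0 CPM and from 45.0 to 71.2 CPM, so the groups covered almost the same span. Its fold difference was 0.958, with a 95% interval of 0.820 to 1.12 (edgeR adjusted p = 0.803).

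Srf encodes the MADS-box factor that binds CArG boxes, and it was at 32.1, 35.7 and 45.7 CPM in WT and 23.8, 35.5 and 49.2 CPM in B3AR-Tg. The medians were nearly equal, and the B3AR-Tg mice held both the lowest and the highest value. The fold difference was 0.996 with a 95% interval of 0.837 to 1.18 (edgeR adjusted p = 0.988).

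Neither GATA gene passed the test. Gata4, a main mediator of hypertrophic transcription, was at 23.1, 37.7 and 52.6 CPM in WT and at 28.7, 38.0 and 47.4 CPM in B3AR-Tg, a fold difference of 1.02 with an interval of 0.818 to 1.27 (edgeR adjusted p = 0.956). Gata6, its close relative, was at 27.2, 31.7 and 40.5 CPM in WT and at 31.8, 39.4 and 45.3 CPM in B3AR-Tg. All 8 B3AR-Tg mice were above the WT median for Gata6, and 3 were above the highest WT mouse. Its log2 fold change was 0.24 (standard error 0.09) and did not pass (edgeR adjusted p = 0.152, and 0.0790 to 0.242 with single mice left out).

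Nkx2-5, the homeodomain factor of the myocyte lineage, was at 27.6 ± 5.44 CPM in WT mice against 28.4 ± 5.57 CPM in B3AR-Tg mice. Its ranges, 22.4 to 39.4 CPM and 21.3 to 38.7 CPM, were almost the same, and the fold difference was 1.03 with an interval of 0.854 to 1.23 (edgeR adjusted p = 0.915).

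Hand2, known for right ventricular growth in the embryo, was at 15.6, 19.7 and 44.5 CPM in WT and at 19.3, 22.3 and 29.5 CPM in B3AR-Tg. WT replicate 1 alone lay above 27.7 CPM in its group, and with it the WT standard deviation was 9.33 CPM, against 3.70 CPM in B3AR-Tg. The fold difference was 0.980 with an interval of 0.764 to 1.26 (edgeR adjusted p = 0.955). Hand2 overlaps the antisense gene Hand2os1, which has no row in the table. The overlap is between gene bounds, shared exons were not checked, and the strand setting of the counting was not given. Whether reads of the antisense transcript were counted for Hand2 is thus not known. The same holds for Gata6 with 1010001N08Rik, Mef2d with 1700113A16Rik and Srf with Gm26904, while Mef2a overlaps Lysmd4, which does have a row. Mef2a also overlaps Gm44667 and Gm44668 on its own strand, and Srf overlaps Mir6976 on its own strand. These have no row, and a strand setting would not separate reads from any exon bases they share.

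Tbx5, a T-box activator that partners GATA4 and NKX2-5, was the factor with the lowest level per kilobase and the highest estimated fold. It lay at 4.26, 7.56 and 8.73 CPM in WT and at 4.54, 10.8 and 12.1 CPM in B3AR-Tg. In B3AR-Tg, 7 of 8 mice were above every WT mouse, and replicate 1 was at 4.54 CPM, near the lowest WT mouse. That value rests on 68 counts in the library with the highest total. Over all mice the log2 fold change was 0.49 (standard error 0.18) and did not pass (edgeR adjusted p = 0.115). Without B3AR-Tg replicate 1 it was 0.61 (standard error 0.13) and passed (edgeR adjusted p = 0.0131), while Mef2d then missed the threshold (0.40, adjusted p = 0.0572).

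Tbx20, a T-box factor needed for adult myocyte function, stood at 125, 130.3 and 180.1 CPM in WT and at 123, 128 and 177 CPM in B3AR-Tg. In each genotype 1 mouse lay far above the rest, WT replicate 4 and B3AR-Tg replicate 1, and the other 14 mice fell between 123 and 148 CPM. The fold difference was 0.974 with an interval of 0.854 to 1.11 (edgeR adjusted p = 0.866). B3AR-Tg replicate 1 was thus the mouse with the lowest Tbx5 and the highest Tbx20 of its group.

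Set against transcript length, the order of the factors was led by Mef2a and closed by Tbx5 in both genotypes. CPM per kilobase of the longest coding transcript (GENCODE M21) was 26.9 ± 3.42 for Mef2a, 18.1 ± 3.57 for Nkx2-5, 15.2 ± 2.03 for Tbx20, 13.9 ± 1.69 for Srf and 11.2 ± 3.14 for Gata4 in WT. Gata6, Hand2 and Mef2c followed at 10.2 ± 1.36, 9.94 ± 3.97 and 9.78 ± 1.38, then Mef2d at 6.90 ± 1.24 and Tbx5 at 1.82 ± 0.362. Each factor's range over the 8 mice overlapped that of the next in the order, except between Mef2d and Tbx5, and the same was true in B3AR-Tg, where Mef2d was at 9.18 ± 1.38 and Tbx5 at 2.59 ± 0.641. The order of the middle depends on the transcript chosen: by the median coding transcript, Mef2c was 4 and Mef2d 5 in WT, while Mef2a stayed first and Tbx5 last.

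**Figure D2:**
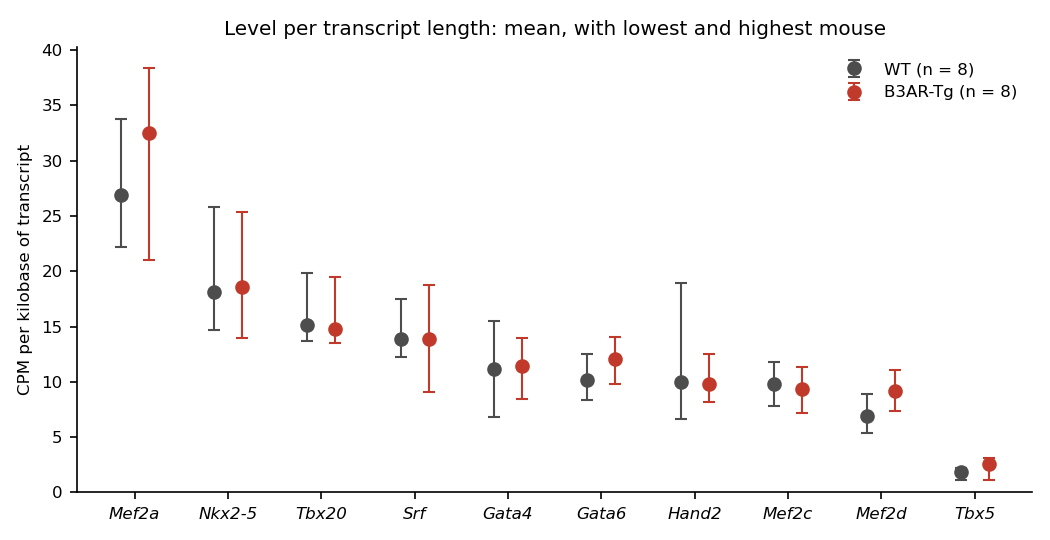
CPM per kilobase of the longest coding transcript (vertical axis) for the 10 factors, in WT (grey) and B3AR-Tg (red); points are means of 8 mice and bars reach the lowest and highest mouse. Mef2a leads at 26.9 in WT, and neighbours overlap down to Mef2d, which sits apart from Tbx5 at 1.82.

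Spread between mice of one genotype also differed among the factors. The within-group SD of log2 CPM was lowest for Tbx20 (0.18) and Gata6 (0.18), where 16.8% and 18.9% of all tested genes had a lower SD. It was highest for Tbx5 (0.40), Hand2 (0.37) and Gata4 (0.35), where 72.9%, 68.7% and 64.3% of genes had a lower SD, and the median over all tested genes was 0.28.

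Related factors were also set against each other inside each library, where the scaling between libraries has no part. The log2 ratio of Mef2c to Mef2a counts was −1.28 ± 0.28 in WT and −1.61 ± 0.21 in B3AR-Tg, with 3 of 8 B3AR-Tg mice above the WT median (exact permutation p = 0.0211, adjusted p = 0.0845 over the 4 ratios, two-sided). Mef2d to Mef2a lay between −2.14 and −1.51 in WT mice and between −2.18 and −1.55 in B3AR-Tg mice, and 7 of 8 B3AR-Tg mice were above the WT median (exact permutation adjusted p = 0.214). For Gata6 to Gata4 the means were −0.16 ± 0.41 and 0.02 ± 0.29 (exact permutation adjusted p = 0.333). Tbx20 to Tbx5 was 4.28 ± 0.30 in WT and 3.76 ± 0.63 in B3AR-Tg, with 1 of 8 B3AR-Tg mice above the WT median (exact permutation adjusted p = 0.108). None of the 4 ratios passed with all mice. Without B3AR-Tg replicate 1 the difference in Tbx20 to Tbx5 was −0.73 in place of −0.51 and passed (exact permutation adjusted p = 0.000622). That mouse had the only B3AR-Tg ratio above the WT median, so this test leaves out the value opposite to the rest of its group. Its p-value is the lowest that the permutation can give without that mouse.

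**Figure D3:**
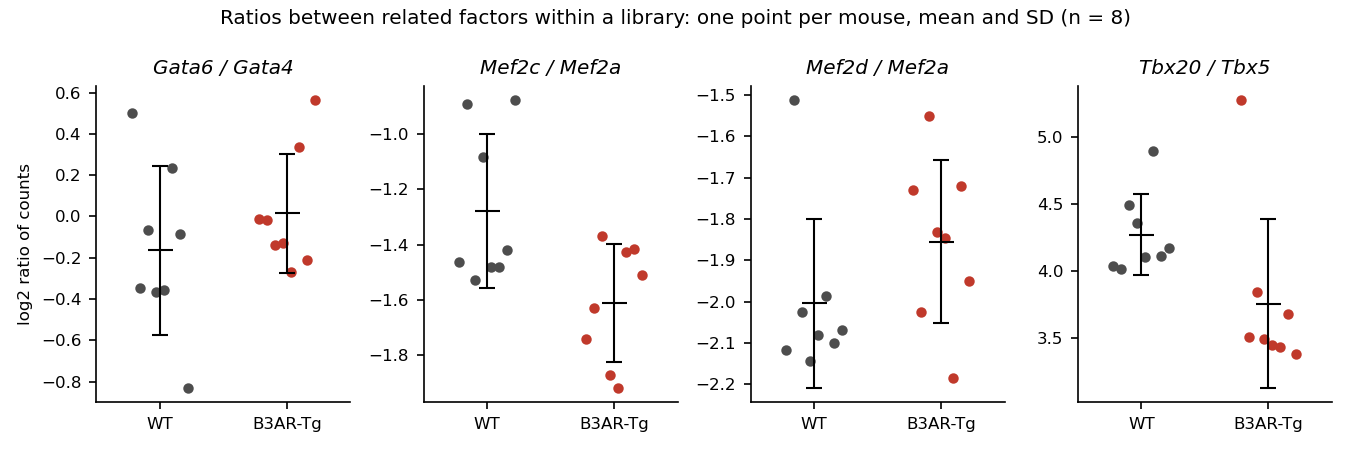
log2 ratio of counts (each count plus 0.5) between related factors in each of 8 WT (grey) and 8 B3AR-Tg (red) mice, with mean and SD; the vertical axes differ and do not start at 0. In the Tbx20 to Tbx5 panel, B3AR-Tg replicate 1 stands at 5.28 above the other 7 mice of its group, which lie between 3.38 and 3.84.

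Other factors of the heart fields were mostly at the edge of detection or did not pass. Of 23 such genes, 9 did not pass the filter, among them Isl1 and Gata5, and Hand1 and Nkx2-6 had no count in any mouse. Of the 14 tested, 2 passed and both fell, or 14.3% against 4.91% of all tested genes (2.88% lower); the median log2 fold change of the 14 was 0.04. Irx3, an Iroquois factor known from the ventricular conduction system, fell from 10.3 ± 2.27 to 6.60 ± 1.13 CPM (log2 fold change −0.65, edgeR adjusted p = 0.0148) and passed with each of the 16 mice left out. Hey1, a Notch target also known from endothelial cells, fell from 2.70 ± 1.67 to 1.02 ± 0.547 CPM (−1.46, edgeR adjusted p = 0.0422), and missed the threshold in 10 of 16 fits with 1 mouse left out (WT replicates 1, 2, 4 and 8, and B3AR-Tg replicates 1, 2, 3, 5, 6 and 8; adjusted p up to 0.103). Its level was near the floor of 3 counts in some mice, with 3 counts in WT replicate 5 and 2 in B3AR-Tg replicate 2. Tead1, which binds many cardiac promoters, was at 145 and 147 CPM (log2 fold change 0.02, edgeR adjusted p = 0.966).

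Partners and cofactors of the 10 factors gave 1 call among 29 tested genes, against 4.91% of all genes, with a median log2 fold change of 0.04. That gene was Ankrd1, a stretch-responsive ankyrin repeat protein of the sarcomere and nucleus that is itself a target, which fell from 3849 ± 1598 to 1719 ± 722 CPM (−1.16, edgeR adjusted p = 0.0131). Myocd, the myocardin coactivator of SRF, was at 35.3 and 36.4 CPM (log2 fold change 0.04, edgeR adjusted p = 0.926). Zfpm2, the FOG2 partner of GATA4, was at 15.2 and 18.3 CPM (0.26, edgeR adjusted p = 0.363).

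Of 27 tested kinases, phosphatases and deacetylases upstream of the factors, 0 passed in edgeR's test, 4 had an unadjusted p under 0.05, all with higher values in B3AR-Tg, and DESeq2 and limma voom also called 0. Of all tested genes, 19.3% had an unadjusted p under 0.05 and 8.71% had one with a higher value, so 4 of 27 is given as a count only. Hdac4, a class II deacetylase that represses MEF2, came closest at 20.2 and 28.0 CPM (log2 fold change 0.47, edgeR adjusted p = 0.0826). Without WT replicate 3 it passed (0.56, edgeR adjusted p = 0.0310), as it did with library size as the only scaling (0.55, adjusted p = 0.0484).

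Textbook targets of the 10 factors moved in both directions. Of 49 tested, 14 passed, 5 higher and 9 lower, or 28.6% against 4.91% of all tested genes; their median log2 fold change was −0.09. The list was drawn up knowing that load markers fell in these data, so its share of calls is a description. Of the 9 that fell, 6 were genes of the load marker list. Nppa, the atrial natriuretic peptide gene whose promoter is printed above, fell from 562 ± 555 to 35.3 ± 36.5 CPM (log2 fold change −3.99, edgeR adjusted p = 0.00362). Myh7, the slow myosin heavy chain, fell by 2.03 (edgeR adjusted p = 0.00632), and Acta1, skeletal actin, fell by 1.74 (adjusted p = 0.0245). For Myh7, WT replicates 2, 4 and 8 stood at 4264 to 5343 CPM and the other WT mice at 795 to 1416 CPM. B3AR-Tg mice lay at 415 to 1091 CPM, so the groups overlapped, and limma voom with sample weights gave −1.40. Nppb (−1.13, adjusted p = 0.0223) and Xirp2 (−1.05, adjusted p = 0.0215) fell as well. Myom2, an M-band protein, fell by 0.78 with groups that did not overlap (edgeR adjusted p = 0.00348), where 0.247% of tested genes had such groups in that direction, and Cfl2 (−0.32) and Tnnc1 (−0.27) fell by less (adjusted p = 0.0389 and 0.0431).

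Acta1 and Actc1 each carry a CArG box in the promoters printed above; the first fell and the second did not pass. Cardiac actin, Actc1, was at 6183 ± 713 CPM in WT mice against 6613 ± 1188 CPM in B3AR-Tg mice (log2 fold change 0.10, edgeR adjusted p = 0.677), while Acta1 went from 2272 ± 1084 to 680.2 ± 555 CPM. Myh6, the fast myosin heavy chain, was at 17066 ± 2098 and 20546 ± 2109 CPM (0.27, edgeR adjusted p = 0.108), and DESeq2 and limma voom called it (adjusted p = 0.0326 and 0.0480). A test of the difference between these targets was not run, and reads shared by Acta1 and Actc1, or by Myh6 and Myh7, may have been split by the counting.

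The targets that rose were ion channel genes and 1 regulator of mitochondrial content. Kcnj2 rose by 0.65 on the log2 scale (edgeR adjusted p = 0.0162), Kcnh2 by 0.60 (adjusted p = 0.0369), Kcnd2 by 0.54 (adjusted p = 0.0380), the ryanodine receptor gene Ryr2 by 0.46 (adjusted p = 0.0359) and Ppargc1a by 0.74 (adjusted p = 0.0384). For Ppargc1a, B3AR-Tg replicates 1 and 3 stood at 290 and 200 CPM and the other B3AR-Tg mice at 89.6 to 138 CPM, against 67.4 to 110 CPM in WT. With single mice left out its log2 fold change was 0.51 to 0.81. Kcnd2 had groups that did not overlap, at 11.9 to 34.6 CPM in WT and 34.7 to 43.5 CPM in B3AR-Tg, where 0.201% of tested genes had such groups in that direction.

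Which targets passed rested in part on single mice. Nppa, Myh7, Ankrd1, Myom2 and Kcnj2 passed in all 16 fits that left 1 mouse out. Nppb, Acta1 and Xirp2 passed in 14 each, Nppb and Xirp2 missing without WT replicate 4 or B3AR-Tg replicate 5 (log2 fold changes −1.03 and −1.02 for Nppb, −0.88 and −0.99 for Xirp2) and Acta1 without WT replicate 2 (−1.53) or B3AR-Tg replicate 5 (−1.62). Kcnd2 passed in 10, Ryr2 in 8, Kcnh2 in 7, Cfl2 and Ppargc1a in 6 and Tnnc1 in 3, and each kept its sign. The count of 14 fell to 9 without WT replicate 1 or 8, 8 without WT replicate 2, 7 without WT replicate 4 and 5 without B3AR-Tg replicate 5. With the other-cell score (mean of 15 fibroblast and endothelial markers) as a covariate, 0 of the 49 tested targets passed and 0 of the 10 factors did. In that fit the log2 fold changes of Nppa, Myh7, Ankrd1 and Xirp2 were −1.93, −0.92, −0.37 and −0.34, nearer to 0 than without the covariate. Those of Myom2 (−0.65), Kcnh2 (0.55), Ryr2 (0.52) and Tnnc1 (−0.37) were closer to their values without it, with standard errors of 0.21, 0.26, 0.19 and 0.12. Over all tested genes 3 were left (Adgrb3, Phkg1 and Grin2c), while 1192 had an unadjusted p under 0.05. That score was lower in B3AR-Tg (0.50 ± 0.34 for WT against −0.50 ± 0.52 for B3AR-Tg) and followed genotype with r = −0.77 over the 16 mice, so in that fit score and genotype largely overlap.

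**Figure D4:**
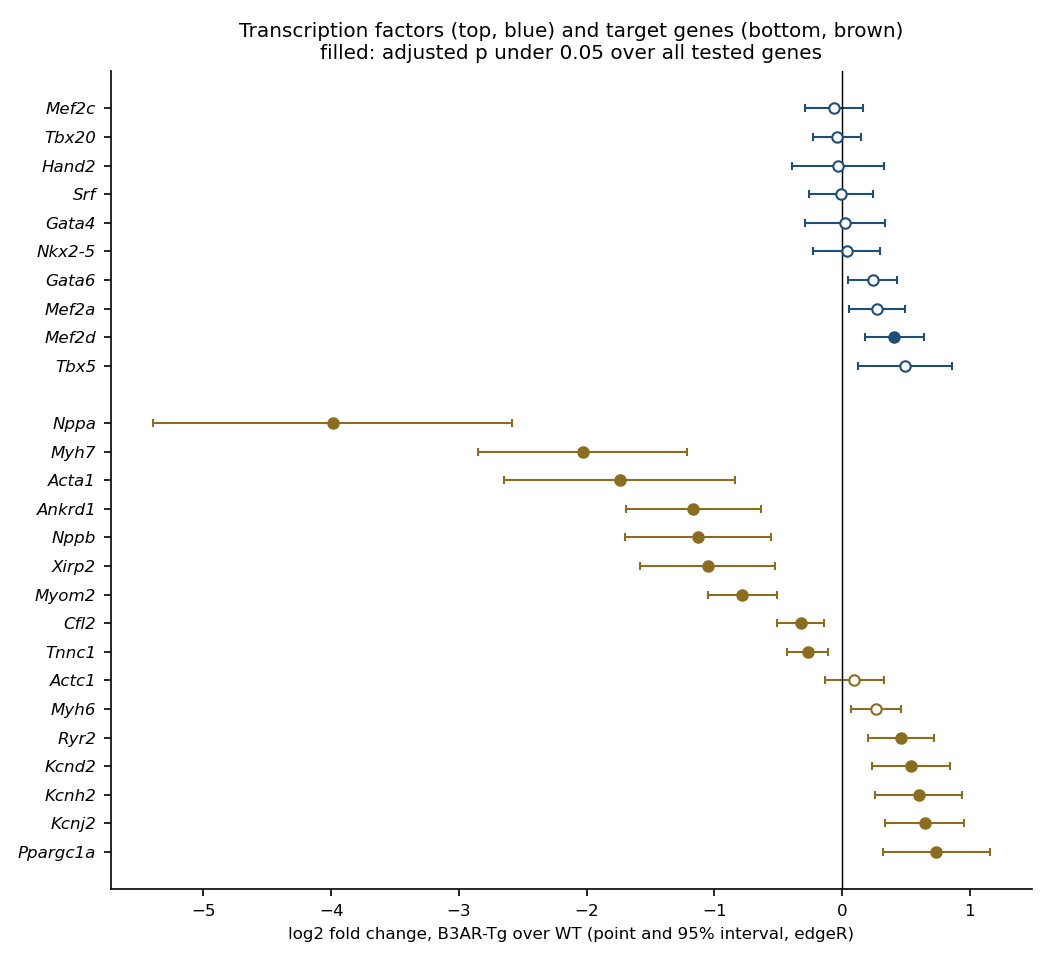
log2 fold change of B3AR-Tg over WT with its 95% interval (horizontal axis) for the 10 factors (blue, top) and 16 target genes (brown, bottom); filled points passed at an adjusted p under 0.05. The factors lie between −0.06 and 0.49, while the targets reach from −3.99 for Nppa to 0.74 for Ppargc1a.

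Within a genotype, the level of each factor was set against a load marker score (mean log2 CPM of Nppa, Nppb, Myh7, Acta1, Ankrd1 and Xirp2, centred over the 16 mice) and against the other-cell score. The load score itself was 0.91 ± 0.76 over WT mice against −0.91 ± 0.60 over B3AR-Tg mice, a difference of −1.81. All 6 of its genes had passed as lower in the same comparison and were listed with that known, so no test of the score is given. Of 40 such relations none passed after adjustment, and 5 had an unadjusted exact permutation p under 0.05 for r, all in WT. For rho, 7 did, 5 in WT and 2 in B3AR-Tg. The lowest adjusted p was 0.338 for r and 0.262 for rho. In WT, the level of Tbx5 against the load score gave r = 0.73 (exact permutation p = 0.0174; rho = 0.83, exact p = 0.0154; adjusted p = 0.338 and 0.262), and that of Srf gave r = 0.71 (exact p = 0.0375; rho = 0.74, exact p = 0.0458; adjusted p = 0.352 and 0.262). Without the 2 mice farthest from the median score, r was 0.68 for Tbx5 and 0.85 for Srf. For Mef2a r was negative in both genotypes. It was −0.67 in WT (exact p = 0.0548, rho = −0.71, exact p = 0.0576) and −0.42 in B3AR-Tg (exact p = 0.272, rho = −0.74, exact p = 0.0458). The adjusted p for r was 0.352 and 0.651, and r was −0.85 and −0.84 without the 2 farthest mice. Mef2d gave r = −0.19 in WT (exact p = 0.639, rho = −0.24, exact p = 0.582) and r = −0.13 in B3AR-Tg (exact p = 0.772, rho = −0.31, exact p = 0.462). Its adjusted p for r was 0.832 and 0.909, and its r was −0.87 and −0.76 without the 2 farthest mice. Leaving out 2 mice also moved r widely for other factors against the load score. For Gata4 in B3AR-Tg it went from 0.24 to −0.86, and for Nkx2-5 in WT from 0.37 to 0.90. Values of r without the 2 farthest mice were not tested. Hand2 against the load score in WT gave r = 0.40 (exact p = 0.351; rho = 0.79, exact p = 0.0279; r = 0.31 without the 2 farthest mice; adjusted p = 0.651 and 0.262).

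Against the other-cell score in WT, r was 0.81 for Gata4 (exact permutation p = 0.0155; rho = 0.74, exact p = 0.0458), 0.77 for Mef2c (exact p = 0.0253; rho = 0.81, exact p = 0.0218) and 0.71 for Tbx5 (exact p = 0.0491; rho = 0.57, exact p = 0.151), with adjusted p for r of 0.338, 0.338 and 0.352. Without the 2 farthest mice these were 0.53, 0.64 and 0.47. For Mef2d, r with the other-cell score was 0.15 in WT (exact p = 0.719; rho = 0.05, exact p = 0.935; r = −0.46 without the 2 farthest mice) and 0.62 in B3AR-Tg (exact p = 0.103; rho = 0.69, exact p = 0.0694; r = 0.25 without them; adjusted p for r of 0.871 and 0.413). Nkx2-5 in B3AR-Tg gave r = −0.65 (exact p = 0.0791; rho = −0.83, exact p = 0.0154; r = −0.70 without the 2 farthest mice; adjusted p = 0.352 and 0.262). The load and other-cell scores followed each other in WT (r = 0.84) and less so in B3AR-Tg (r = 0.10), and in WT relations to the one cannot be told apart from relations to the other.

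**Figure D5:**
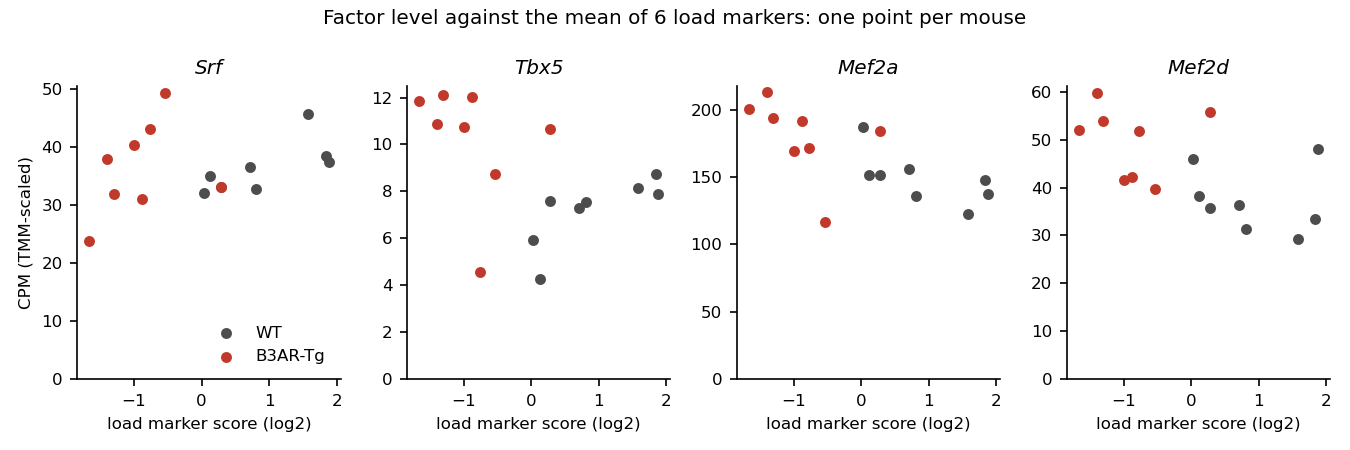
TMM-scaled CPM (vertical axis, from 0) of Srf, Tbx5, Mef2a and Mef2d against the load marker score (horizontal axis, log2 units) in 8 WT (grey) and 8 B3AR-Tg (red) mice. WT mice spread from 0.03 to 1.88 on the score and B3AR-Tg mice from −1.66 to 0.28; in WT, Srf and Tbx5 have r = 0.71 and 0.73 with the score and Mef2a has r = −0.67, and none of these relations passed adjustment.

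The genes with the most similar pattern were sought for each factor, by Pearson's r of log2 CPM less the genotype mean over the 16 mice among all tested genes. They are given as description, since libraries share their scaling and the highest of many values is high in any case. For Srf the first was Nppb (r = 0.84), followed by Perm1 (0.83) and Eif3l (0.82). Mef2a was closest to Zmat1 (0.94) and Rgmb (0.94), and Mef2d to Slc22a23 (0.90), Plxna4 (0.89) and Zfp142 (0.88). Mef2c was closest to Itgav (0.90), Tab3 (0.85) and Chrm2 (0.84), the last being the muscarinic receptor of the heart and a gene of the target list. The first for the others were Usp20 for Gata4 (0.87), Pwwp3a for Gata6 (0.90), Mlf2 for Nkx2-5 (0.88), Fbxo9 for Tbx5 (0.86), Dcun1d3 for Tbx20 (0.84) and Exosc8 for Hand2 (0.77).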

How the data were processed

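The authors deposited whole-number counts per gene, 1 column per mouse, without normalization; per the submitters' processing notes Salmon and GRCm39 were used, and whether the counts are rounded estimates, the annotation release and the strand setting were not given in the sources used here. Per the labels' protocols, libraries were stranded and made from 500 ng of RNA. Columns were matched to mice by the name in each title, 8 per genotype. Replicates carry separate animal names; p-values measure the spread between these libraries. Over the 56 pairs within a genotype, chi-square per gene was 5.82 to 52.8, so each library was kept.

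Genotype was tested with edgeR 4.0.16 (R 4.3.3; filterByExpr with minimum count 10 and total 15, TMM, quasi-likelihood F test, Benjamini-Hochberg over 10945 genes, two-sided, threshold 0.05). Intervals are 95% and unadjusted. Scores used log2 CPM with a prior count of 2. Ratios were permuted over all 12870 splits and correlations over all pairings (scipy 1.17.1 and numpy 2.4.6 were used). Alternatives were RLE, upper quartile and library-size scaling, no filter, DESeq2 1.42.0, limma 3.58.1 voom, a replicate block, the other-cell covariate and each mouse left out. On simulated data of 10889 genes, edgeR recovered 37.5% of 200 genes changed by 0.5 (log2), with 2.60% of calls false. At 1, over 10853 genes, it recovered 84.5%, with 4.52% of calls false. DESeq2 had 10.1% and 10.7% of its calls false, and limma voom 3.80% and 2.87%. Named genes were the 10 factors, Nppa, Nppb, Myh6, Myh7, Actc1 and Acta1, list genes past the threshold and the 3 most similar genes, of which some are not reported here; Tead1, Myocd, Zfpm2, Hdac4, Adgrb3, Phkg1 and Grin2c were added after their values were seen. The members and lists were chosen with earlier results of these data known. Promoters are RefSeq's on GRCm38.p6, a build other than the one in the submitters' notes. Transcript lengths and overlaps between genes were read from GENCODE M21 on GRCm38, whose gene positions are not printed. Transgene reads were not analysed here.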

Additional observations from a re-analysis of the deposited data

Results flagged for a closer look

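In each group of 8 mice, the highest and lowest values were checked for a gap to the nearest mouse that took more of the group's range than Dixon's 95% critical value allows. Of 68 groups searched 8 had such a mouse, where chance gives about 3.4 (1 in 20 groups); several of the searched values share a gene.

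For Tbx5, B3AR-Tg replicate 1 was low at 4.54 CPM, while its 7 group mates had 8.75 to 12.1 CPM, a gap of 0.667 of the range. The same mouse was high for Tbx20, at 177 CPM against 123 to 137.5 CPM (0.700), and so for the log2 ratio of Tbx20 to Tbx5, at 5.28 against 3.38 to 3.84 (0.757). WT replicate 4 was also high for Tbx20, at 180.1 CPM against 125 to 148 CPM (0.534), and low for Kcnd2, at 11.9 CPM against 22.5 to 34.6 CPM (0.595). For Mef2a, B3AR-Tg replicate 3 was low at 116 CPM against 169.6 to 213 CPM (0.624). The log2 ratio of Mef2d to Mef2a was high in WT replicate 2, at −1.51 against −2.14 to −1.99 (0.751). Actc1 was low in B3AR-Tg replicate 4, the library with the lowest total, at 4456 CPM against 6165 to 8173 CPM (0.535). Causes were not tested.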

How the results depend on the processing

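The sign of Mef2d held under all 24 alternatives (log2 fold change 0.36 to 0.63), and its call under 11 of them. With single mice left out, the number of factors called ranged from 0 to 2, of genes called over the whole table from 272 (without WT replicate 4; 277 without B3AR-Tg replicate 5) to 675, and of genes called over the 4 lists, 16 at first, from 6 to 20. By list the ranges were 1 to 3 for heart-field factors, 1 to 2 for partners, 0 to 1 for upstream enzymes and 5 to 16 for targets. The ratios ranged from 0.08 to 0.27 (Gata6 to Gata4), −0.37 to −0.28 (Mef2c to Mef2a), 0.11 to 0.22 (Mef2d to Mef2a) and −0.73 to −0.43 (Tbx20 to Tbx5), and 0 relations to the scores passed in any of these fits. With limma voom 706 genes were called over all tested genes, in place of 537 in edgeR's test. Among them were 2 factors, Mef2d and Mef2a, and 1 heart-field factor, Irx3. With library size only, 1 heart-field factor (Irx3) and 1 upstream enzyme (Hdac4) were called, and the split over all genes was 347 higher and 165 lower in place of 222 and 315; the median over all genes was then 0.08. With the other-cell covariate 3 genes passed over all genes, with 0 factors and 0 genes in each of the 4 lists, and Hey1 changed sign to 0.062 (adjusted p = 0.978).

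Replicate numbers are shared by the genotypes but belong to different mice: deviations of same-numbered mice correlated between −0.22 and 0.09, and none correlated best with its own number. A replicate block left 230 genes called, 0 factors (Mef2d 0.42, adjusted p = 0.129), 8 genes over the 4 lists, all 8 of them targets, and 0 heart-field factors or partners; the 4 ratios stayed on their side of the threshold. DESeq2 called 804 genes in all, and its share of false calls in the simulated data was above that of edgeR. Those data were drawn with dispersions estimated by edgeR, gene by gene, in a single run per size of change. They therefore do not rank the tools on the real counts. In the simulated data edgeR recovered 37.5% of changes of 0.5 on the log2 scale. The changed genes there were drawn at random from all tested genes, so that share does not describe the factors. The factors had standard errors of 0.09 (Tbx20) to 0.18 (Tbx5), and their estimates were all smaller than 0.5.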

Other observations

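Levels of the factors were also compared with each other within a genotype, over 45 pairs in each and 90 in all, after the values had been seen. None passed adjustment. In B3AR-Tg, 10 pairs had an unadjusted exact permutation p under 0.05, and in WT 2 did. The median r was 0.11 and 0.06. The share over pairs of all tested genes was not determined, and pairs share genes and mice, so these are counts only. Single mice weighed on r: for Tbx5 with Tbx20 in B3AR-Tg it was −0.88, and 0.09 without the 2 mice farthest from the Tbx5 median. The lowest p was for Gata6 with Tbx5 in B3AR-Tg (r = 0.83, exact p = 0.00203, adjusted p = 0.183; rho = 0.76, exact p = 0.0368, adjusted p = 0.331), and r was 0.51 without the 2 mice farthest from the Gata6 median. For Mef2c with Srf in B3AR-Tg r was negative (r = −0.80, exact p = 0.0160, adjusted p = 0.312; rho = −0.83, exact p = 0.0154, adjusted p = 0.277), with r of −0.70 without the 2 farthest mice. In WT, r was highest for Gata4 with Mef2c (r = 0.79, exact p = 0.0217, adjusted p = 0.312; rho = 0.83, exact p = 0.0154, adjusted p = 0.277; r = 0.62 without the 2 farthest mice). Whether such a relation differs between the genotypes was not tested.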
